A study of Arabidopsis thaliana with 6 samples.

Results

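The genes described here are 111 nuclear genes of Arabidopsis thaliana whose transcripts were 2- to 4-fold higher in yaf9a yaf9b seedlings than in wild type (WT). They were chosen from these same arrays: each had a probe set listing that 1 gene, on RefSeq chromosomes 1 to 5, a mean log2 signal in 3 mutant arrays that exceeded the mean of 3 WT arrays by at least 1 and under 2, and every mutant array above every WT array. IAA29 and bZIP44 met the same rule and were left out. The 111 probe sets came from 13367 that listed 1 nuclear gene, and from 22746 probe sets in all. Because the mutant minus WT difference and the separation of the arrays chose these genes, their differences are given as a description and without a test. The mirrored rule, with signs reversed, found 46 probe sets, and 12 were at least 4-fold higher with separate genotypes.

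Both groups were whole seedlings of ecotype Col-0, 20 days old, grown on agar at 22 °C in short days of 8 h light and 16 h dark, without treatment, and harvested at ZT8 as the light period closed. One group was WT and the other the yaf9a yaf9b double mutant, with 3 biological replicates and 3 ATH1 arrays each. Each sample held about 250 mg of seedlings, and the labels do not name the alleles. YAF9A and YAF9B had no probe set listed under their loci, so the targeted transcripts did not check the genotype labels.

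YAF9 proteins belong to the YEATS domain family, which binds acylated histones. They are subunits shared by the NuA4 complex, which acetylates histone H4 and H2A variants, and by the SWR1 complex, which exchanges H2A for the variant H2A.Z. In Arabidopsis, H2A.Z is found near transcription start sites of active genes and over the bodies of genes that respond to environment or development, and mutants of SWR1 subunits are known for early flowering and for altered expression of inducible genes.

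The 111 genes spanned many functions, with cell wall enzymes, receptor kinases, immune proteins, WRKY and ERF transcription factors and proteins of protein turnover among them. Their median log2 difference, mutant minus WT, was 1.22 (2.32-fold). In 27 it was at least 1.5. Only 16 carried a RefSeq symbol other than their locus, and 80 could be placed in 17 functional groups from a symbol, a synonym or textbook knowledge of the locus. The other 31 are little described here. RefSeq lists 110 as protein coding and AT2G35590 as a transcribed pseudogene. No gene had another probe set that listed it alone, so each value rests on 1 probe set.

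By limma, 107 of the 111 had an adjusted p under 0.05, whereas 6.52% of all 22746 probe sets were called higher in the mutant and 13.1% in either direction. The rule used the same contrast, so nothing is read from that count. The 4 that were not called were AT4G32800, AT4G01700, AT2G25510 and AT2G44500. Every mutant array lay above every WT array by construction, which held for 15.6% of all probe sets and 14.5% of the nuclear ones. The gap between the lowest mutant and the highest WT array had a median of 0.75 on the log2 scale. It was at least 1 in 19 genes and under 0.5 in 26.

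Over all probe sets, the arrays had medians of 5.99 to 6.06. Markers were looked up by RefSeq symbol or synonym, and those found are called measured. Of the green tissue markers, 5 of 12 were measured, with a summed level of 15.3 to 15.4 in WT and 15.3 in each mutant array on the log2 scale. Among them, LHCB4.2 had 13.22, 13.33 and 13.17 in WT and 12.87, 12.86 and 12.99 in the mutant. It differed by -0.33 ± 0.0876 (limma adjusted p = 0.0434). LHCB4.1, LHCB4.3, PSBW and RCA differed by -0.07, 0.14, -0.05 and 0.06 and were not called. For the root list, 3 of 8 were measured, with a summed level of 12.2 to 12.4 in WT and 11.8 to 12.4 in the mutant, the lowest in mutant array 3. The flower and pollen list and the seed and embryo list had 0 members found by name. Since 8730 probe sets listed no gene, a marker not found may still be on the array. In whole seedlings, a change in the share of cells of a type and a change in RNA per cell cannot be told apart.

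Before the change itself, the WT level was examined. The mean WT signal of the 111 genes ran from 3.74 to 11.75 with a median of 5.96, beside a median of 5.49 over the 13367 nuclear probe sets. A WT mean of 5 to 7 was found in 46, and this range held 41.4% of the members and 23.1% of the nuclear probe sets. Below 5 were 33 members (29.7%, beside 45.3% of nuclear probe sets), from 7 to 9 there were 26 (23.4%, beside 22.8%) and at 9 or above there were 6 (5.41%, beside 8.72%). They were spread over dim and bright probe sets, and a smaller share of them than of all nuclear probe sets lay below 5. The deposited values carry no detection call, so dim signals are given as measured.

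**Figure D1:**
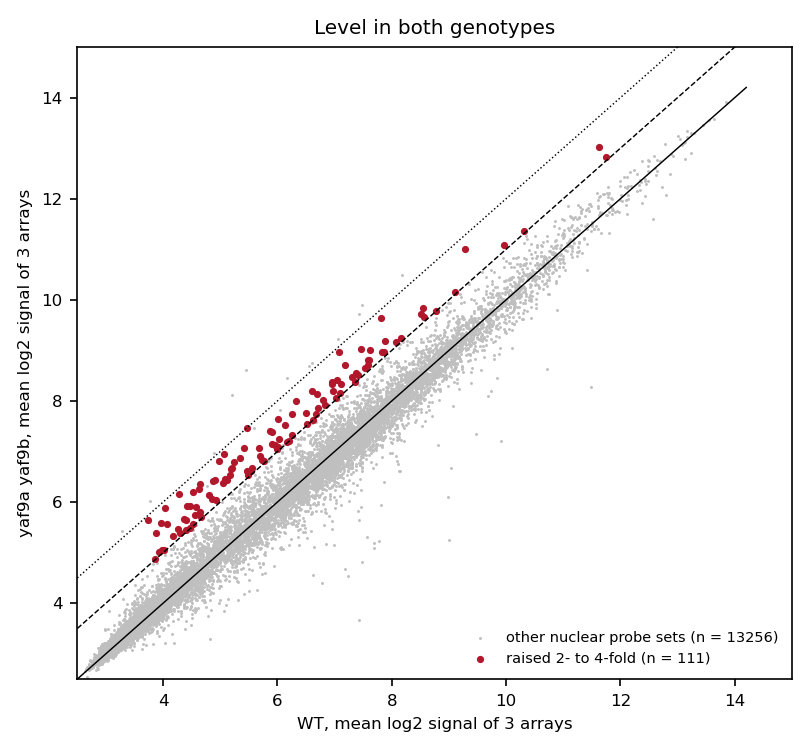
Mean log2 signal in WT (horizontal) and in yaf9a yaf9b (vertical), 3 arrays each, for the 111 genes (red) and the other 13256 nuclear probe sets (grey). Solid, dashed and dotted lines mark equal signal, 2-fold and 4-fold, and the red points lie between the last pair of lines at WT levels from 3.74 to 11.75.

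The brightest genes in WT were AT2G25510, AT3G22240 and AT3G15630. AT2G25510 had log2 signals of 11.23, 12.54 and 11.47 in the WT arrays and 12.74, 13.02 and 12.73 in the mutant arrays. Its WT arrays spanned 1.31, and its log2 difference of 1.08 ± 0.302 (± SE from limma, n = 3 arrays per genotype here and below) was 0.83 without WT array 1, 1.48 without WT array 2 and 0.95 without WT array 3. For AT3G22240, a short protein encoded beside the defence gene PCC1, the signals were 10.8, 12.31 and 11.77 in the WT arrays and 13.06, 12.98 and 13.01 in the mutant arrays. Its mutant arrays agreed within 0.08, whereas WT array 1 lay 1.51 below WT array 2. AT3G15630 had 10.6, 10.23 and 10.12 in the WT arrays and 11.3, 11.42 and 11.36 in the mutant arrays, so the mutant arrays lay within 0.12 and the WT arrays within 0.48. The dimmest in WT were the F-box genes AT5G60610 and AT5G56370 and the little described AT3G19550. F-box proteins choose targets for ubiquitin ligases. AT5G60610 had 3.95, 3.62 and 3.66 in the WT arrays and 5.81, 5.45 and 5.67 in the mutant arrays, a 3.73-fold difference. AT5G56370 had 3.78, 3.91 and 3.87 in the WT arrays and 4.83, 4.79 and 4.98 in the mutant arrays and AT3G19550 had 3.77, 3.91 and 3.96 in the WT arrays and 4.93, 5.53 and 5.72 in the mutant arrays.

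At the upper end of the range, AT3G50570, a hydroxyproline-rich glycoprotein of the cell wall type, was 3.99-fold higher, just inside the bound of 4-fold. Its signals were 5.82, 5.44 and 5.14 in the WT arrays and 7.32, 7.65 and 7.42 in the mutant arrays. Next came AT5G60610 and AT1G19380, both at a log2 difference of 1.90, and beyond the bound the first genes were AT4G37240 at 2.08 and AT1G31690 at 2.13. At the lower end, AT1G33790 and AT3G15720 lay at 1.00, followed by AT1G19960 at 1.01. AT1G33790 had 6.15, 5.96 and 6.52 in the WT arrays and 7.14, 7.39 and 7.1 in the mutant arrays, and AT3G15720 had 6.37, 6.85 and 6.63 in the WT arrays and 7.73, 7.68 and 7.44 in the mutant arrays. In both, the groups lay at least 0.58 apart. Just outside lay AT1G29600 at 1.00 (0.997 before rounding) and AT2G01610 at 0.99. AT1G19960 had 8.19, 9.32 and 8.82 in the WT arrays and 9.58, 9.75 and 10.02 in the mutant arrays, so its groups came within 0.26 of each other.

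A further 5 nuclear probe sets had a mean difference in the range and were left out because the genotypes overlapped. Among them, XTH18 had 6.73, 5.62 and 5.78 in WT and 8.75, 8.98 and 5.75 in the mutant, so that mutant array 3 lay within the WT values. The other 4 were AT5G52750, AT3G46280, AT4G22470 and AT2G44380. In AT3G46280, AT4G22470 and AT2G44380, too, mutant array 3 was the lowest mutant array, at 5.06, 6.32 and 5.88, and in AT5G52750 it was 5.90 beside 7.56 and 7.82.

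Receptor kinases span the plasma membrane and pass signals from outside the cell to the cytoplasm. AT1G35710, a leucine-rich repeat receptor kinase of the MIK2 family, had 5.14, 5.89 and 5.21 in the WT arrays and 6.94, 7.15 and 7.09 in the mutant arrays, a log2 difference of 1.65 ± 0.19. AT3G46370, another leucine-rich repeat kinase, had 6.77, 6.72 and 6.3 in the WT arrays and 8.09, 8.11 and 8.42 in the mutant arrays (1.61 ± 0.15). Mutant array 3 was the highest of its group in AT3G46370, and in both genes the groups lay at least 1 apart. AT5G45840 (MDIS1, known from pollen tube guidance) had 5.36, 5.3 and 4.5 in WT and 6.45, 6.35 and 6.34 in the mutant, and the protein kinase AT2G16750 had 5.25, 4.73 and 4.41 in WT and 6.03, 6.19 and 6.2 in the mutant. WT array 3 was the lowest of the 6 in both of them. THE1, which encodes the receptor kinase THESEUS1 that monitors the cell wall, was 2.1-fold higher (1.07 ± 0.137), with 7.39, 6.97 and 6.91 in WT and 8.09, 8.28 and 8.11 in the mutant. AT5G24240, a phosphatidylinositol 4-kinase of the gamma type, differed by 1.15, and its mutant arrays were spread from 5.32 to 6.47.

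Calcium signals are read by calmodulin and related EF-hand proteins. The calmodulin-like gene AT2G41090 was bright, with 8.57, 10.0 and 9.29 in the WT arrays and 10.88, 10.96 and 11.17 in the mutant arrays. Its 3.29-fold difference came with WT arrays that were themselves 1.43 apart, and the mutant arrays lay within 0.29. The EF-hand gene AT2G41410 was as bright and much tighter, with 9.17, 9.14 and 8.99 in WT and 10.19, 10.19 and 10.06 in the mutant (1.05 ± 0.0904). The calmodulin-binding protein gene AT4G31000 had 5.81, 5.36 and 5.21 in WT and 6.78, 6.92 and 6.15 in the mutant, with mutant array 3 the lowest of the mutant arrays.

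The immune proteins comprised a TIR domain protein, a TIR-NBS-LRR protein, and ankyrin and MACPF proteins. TIR-NBS-LRR proteins are intracellular receptors that trigger defence when a pathogen is sensed. The TIR domain gene AT2G20142 had 3.62, 3.9 and 4.38 in the WT arrays and 5.87, 6.18 and 4.73 in the mutant arrays, a log2 difference of 1.63 ± 0.356. In the mutant, array 3 was only 0.35 above the highest WT array. The ankyrin repeat genes AT4G11000, AT2G24600 and AT1G10340 differed by 1.46, 1.42 and 1.36. AT4G11000 had 5.31, 5.08 and 5.19 in WT and 6.97, 6.68 and 6.3 in the mutant, AT2G24600 had 7.2, 6.9 and 6.76 in WT and 8.52, 8.81 and 7.78 in the mutant and AT1G10340 had 5.46, 4.95 and 5.09 in WT and 6.91, 6.71 and 5.97 in the mutant. The TIR-NBS-LRR gene AT5G58120 and the MACPF gene AT1G14780 were both near the lower bound, at 1.03 and 1.04. In all 6 genes of this group mutant array 3 was the lowest of the mutant arrays, and the group's median difference from the WT mean was 1.66 in mutant array 1, 1.52 in array 2 and 0.82 in array 3.

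Secreted proteins linked to defence formed a group of 7. AT2G19970, a CAP domain protein like PR-1, was almost constant in WT and had 4.3, 4.25 and 4.31 in the WT arrays and 6.18, 6.37 and 5.96 in the mutant arrays, a 3.69-fold difference. AT4G38700, a dirigent protein, had 4.81, 5.03 and 4.76 in WT and 6.57, 6.21 and 6.45 in the mutant, and the jacalin lectin gene AT1G73040 had 4.48, 4.36 and 4.38 in WT and 5.49, 5.81 and 5.66 in the mutant. In these 3 genes the groups were at least 1 apart. The protease inhibitor gene AT1G72060 had 7.16, 6.93 and 7.03 in WT and 9.06, 8.28 and 7.9 in the mutant, with mutant array 1 well above the others. The defensin-like gene AT3G05730 was the brightest of the group (WT mean 9.97) and differed by 1.12, and another jacalin lectin gene, AT1G33790, by 1.00. AT4G01700, of the chitinase family that cleaves fungal cell walls, had 4.64, 4.92 and 5.24 in WT and 6.8, 5.99 and 5.34 in the mutant, and its groups came within 0.10.

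Among transcription factors, WRKY53, which is linked to leaf senescence and defence, had the widest spread of the 111 genes. Its signals were 4.68, 4.95 and 5.28 in the WT arrays and 7.72, 7.11 and 5.58 in the mutant arrays. Of its mutant arrays, array 3 was 2.14 below array 1 and 0.30 above the highest WT array. The log2 difference of 1.83 ± 0.472 was 2.44 without mutant array 3, and this was the 1 gene of the 111 whose fold moved by over 1.5 times when an array was left out. SAG29, the 1 measured marker of 5 on the senescing leaf list, lay at 4.42 to 4.98 in WT and 4.42 to 4.53 in the mutant. WRKY22, linked to immune signalling, was 2.33-fold higher, with 6.44, 5.54 and 6.12 in WT and 6.98, 7.5 and 7.28 in the mutant, and here mutant array 1 was the lowest mutant array.

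ERF proteins bind DNA through an AP2 domain and include regulators of ethylene and stress responses. AT1G36060 of this family had 5.39, 4.88 and 5.1 in WT and 6.58, 6.48 and 6.24 in the mutant, a log2 difference of 1.31 ± 0.147. AT4G32800, also an ERF, had 4.49, 4.49 and 4.1 in WT and 5.63, 6.57 and 4.81 in the mutant, so its mutant arrays spanned 1.76. The bHLH gene AT2G31730 had 5.22, 4.93 and 5.09 in WT and 6.47, 6.72 and 6.17 in the mutant, with the groups 0.95 apart. AT1G26540, with an Agenet domain, and AT1G13880, with an ELM2 domain, differed by 1.20 ± 0.125 and 1.15 ± 0.119. Both are domains of chromatin-associated proteins, and both genes had mutant arrays within 0.15 of each other. Of 7 measured genes with a WRKY symbol or synonym in RefSeq, 2 were called higher and 0 lower, beside 6.52% and 6.61% of all probe sets, and these 2 were WRKY53 and WRKY22, which the rule chose. The call of WRKY53 was lost when any 1 array other than mutant array 3 was left out and with a trended robust variance model, and that of WRKY22 without mutant array 2. The other 5 had a median log2 difference of -0.09. They ran from -0.66 ± 0.378 in WRKY6 (limma adjusted p = 0.311) to 0.39 ± 0.218 in WRKY47 (0.295). The median over all probe sets was 0.01.

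**Figure D2:**
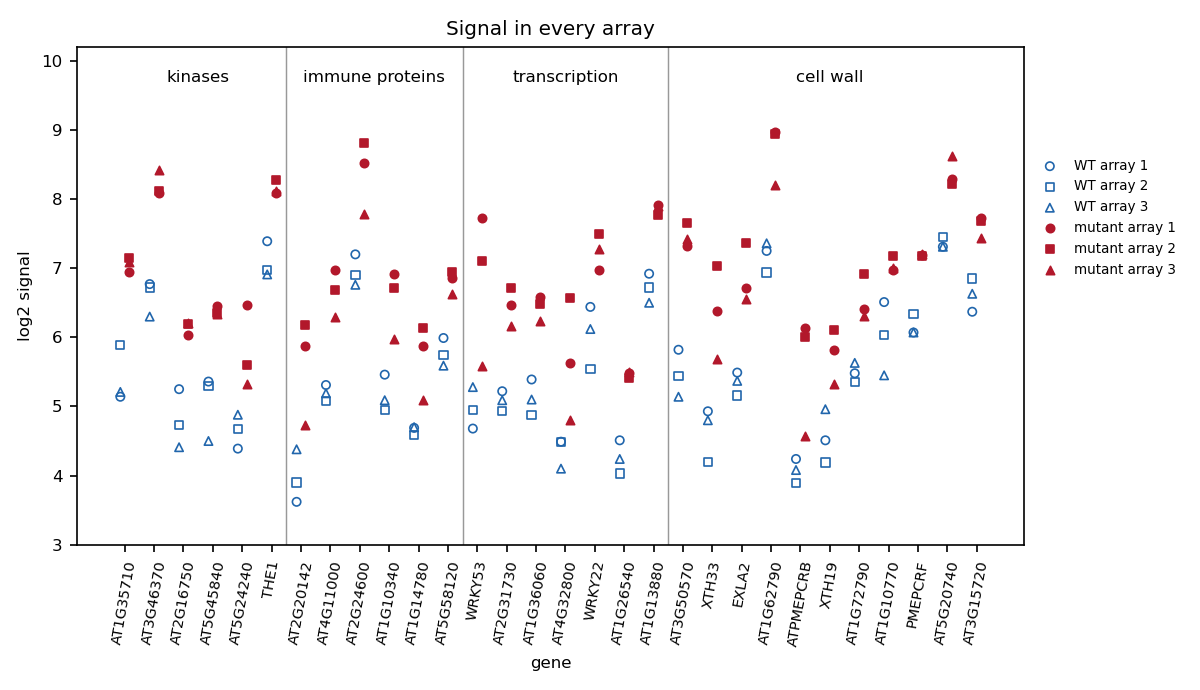
Log2 signal in each of the 3 WT arrays (open blue) and the 3 mutant arrays (filled red) for the kinase, immune, transcription and cell wall groups, with circles, squares and triangles for arrays 1, 2 and 3. Red triangles lie close to the WT values in AT2G20142, WRKY53, AT4G32800 and ATPMEPCRB, whereas PMEPCRF has its red points within 0.03.

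Protein turnover contributed 8 genes. AT4G29370, a kelch repeat F-box gene, had 5.2, 5.07 and 4.91 in WT and 7.01, 6.71 and 7.11 in the mutant, a 3.69-fold difference. The fusion gene AT1G23410, which yields ubiquitin and the ribosomal protein S27a, had 6.05, 5.63 and 5.93 in WT and 7.34, 7.34 and 7.51 in the mutant. With AT5G60610, these 3 had groups at least 1.29 apart. NANA, which encodes an aspartic protease of the chloroplast, had 6.8, 7.16 and 7.4 in WT and 8.46, 8.34 and 8.18 in the mutant. The SINA-like gene AT3G13672 differed by 1.09, the RING genes AT1G74870 and AT5G42200 by 1.03 and 1.03, and AT5G56370 by 1.01. Many RING proteins act as ubiquitin ligases.

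The cell wall group held 11 genes, and its median log2 difference was 1.20. Groups were set by hand after the values were seen, and their shares among all nuclear probe sets were not counted. Xyloglucan endotransglucosylases cut and rejoin the xyloglucans that tether cellulose, and expansins loosen the wall. XTH33 had 4.93, 4.2 and 4.8 in the WT arrays and 6.38, 7.03 and 5.68 in the mutant arrays, a 3.29-fold difference. XTH19 had 4.51, 4.19 and 4.96 in the WT arrays and 5.82, 6.11 and 5.33 in the mutant arrays (1.20 ± 0.237). In both, mutant array 2 was the highest and array 3 the lowest. EXLA2, an expansin-like gene, had 5.49, 5.16 and 5.37 in WT and 6.71, 7.36 and 6.55 in the mutant, with the groups 1.06 apart. The pectin methylesterases, which remove methyl groups from pectin, were PMEPCRF and ATPMEPCRB (PME41). ATPMEPCRB had 4.24, 3.89 and 4.08 in WT and 6.14, 6.01 and 4.57 in the mutant, and PMEPCRF had 6.07, 6.34 and 6.07 in WT and 7.19, 7.17 and 7.2 in the mutant. The mutant arrays spanned 1.57 in ATPMEPCRB, with array 3 the lowest, and 0.03 in PMEPCRF. AT1G62790, of the lipid transfer protein family, had 7.25, 6.94 and 7.36 in WT and 8.97, 8.94 and 8.2 in the mutant. The 2 genes of the pectin methylesterase inhibitor family, AT5G20740 and AT1G10770, the pectin lyase-like gene AT3G15720 and the hydroxyproline-rich gene AT1G72790 differed by 1.00 to 1.06.

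Other measured genes of these wall families were compared in the fit over all 22746 probe sets, where 6.52% were called higher and 6.61% lower. Of 10 measured xyloglucan endotransglucosylase genes, 4 were called higher and 0 lower, and the 8 outside the rule had a median log2 difference of 0.38. Called outside the rule were XTH16 at 0.97 ± 0.128 (limma adjusted p = 0.0041) and EXGT-A3 at 0.93 ± 0.129 (0.0047), both just under the bound. These calls held in every setting tried, whereas that of XTH19 was lost without WT array 2 or mutant array 2 and that of XTH33 without WT array 2. Of 19 measured expansin and expansin-like genes, 5 were called higher and 1 lower. The median of the 18 outside the rule was 0.01. The higher calls of EXLA1, EXLA2 and EXPA20 held in every setting tried. EXPA9 lost its call without WT array 1, WT array 2 or mutant array 2, and EXLA3 without WT array 2 or 3. EXLA1 rose by 2.42 ± 0.287 (limma adjusted p = 0.003), beyond the range, and EXLB1 fell by 1.23 ± 0.241 (limma adjusted p = 0.016, and 0.066 without mutant array 2). Of 6 genes with a pectin enzyme symbol or synonym in RefSeq, 3 were called higher and 0 lower. The 4 outside the rule had a median of -0.005. Of the 3 higher calls, that of PMEPCRF held in every setting tried. ATPMEPCRD, the 1 outside the rule, at 0.52 ± 0.118 (limma adjusted p = 0.0267), and ATPMEPCRB both lost theirs when any 1 array other than mutant array 3 was left out, with adjusted p values of 0.0525 to 0.0793 and 0.0712 to 0.128, and ATPMEPCRB also with a trended robust variance model (0.0841). These counts include the genes chosen by the rule, and nothing is read from the calls of EXLA2, PMEPCRF and the other chosen genes. The members AT5G20740, AT1G10770 and AT3G15720 were not matched by name. They are not among the 6, though limma called each of them higher.

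BGLU45, whose product acts on glucosides of lignin precursors, was 3.17-fold higher with 6.44, 6.26 and 6.3 in the WT arrays and 8.15, 8.0 and 7.85 in the mutant arrays. Its adjacent gene, BGLU46, a close relative, moved the other way. BGLU46 went from a mean of 6.85 to 5.78, a log2 difference of -1.07 ± 0.251 (limma adjusted p = 0.0293). Leaving out WT array 1, 2 or 3 gave adjusted p values of 0.0699, 0.107 and 0.0591, and leaving out mutant array 2 gave 0.108, so that each of these ended the call. Of 37 measured genes with a beta-glucosidase or glycosyl hydrolase name, 2 were called higher (5.41%, beside 6.52% of all probe sets) and 3 lower. The higher calls were BGLU45, which the rule chose, and GH9B13. The call of BGLU45 held in every setting tried, and nothing is read from it. GH9B13 lost its call without WT array 2 (0.0551) or mutant array 2 (0.0549). BGLU27 fell by 0.91 ± 0.129 (adjusted p = 0.0051) and GH9C2 by 0.57 ± 0.122 (0.022, and 0.0831 and 0.05 without mutant array 2 or 3).

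The other hydrolases included lipases. AT1G02660, a plastid lipase, had 7.07, 6.67 and 6.35 in WT and 7.82, 8.25 and 8.34 in the mutant, a log2 difference of 1.44 ± 0.2. The class 3 lipase gene AT5G24210 had 8.62, 8.64 and 8.25 in WT and 9.61, 9.75 and 9.77 in the mutant, and the alpha/beta hydrolase gene AT3G62860 had 7.99, 7.9 and 7.68 in WT and 8.89, 8.99 and 9.03 in the mutant. Both were bright, with the groups at least 0.90 apart. The alpha/beta hydrolase gene AT1G32190 differed by 1.08.

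All 3 transporter genes had mutant array 3 far below mutant arrays 1 and 2. AT5G18840, a sugar transporter of the ERD6-like type, had 5.04, 4.64 and 5.05 in the WT arrays and 7.12, 6.8 and 5.42 in the mutant arrays. AT5G52050 (DTX50), a MATE carrier known to export abscisic acid, had 5.36, 4.89 and 5.35 in the WT arrays and 7.1, 7.13 and 5.77 in the mutant arrays. The ABC transporter-related gene AT3G21080 had 4.62, 4.39 and 4.71 in the WT arrays and 6.73, 5.95 and 5.02 in the mutant arrays. Their median difference from the WT mean was 2.16 in mutant array 1, 1.89 in array 2 and 0.51 in array 3. AT5G52050 was the 1 measured gene with a MATE carrier name. Leaving out mutant array 3 took the log2 differences of AT5G18840, AT5G52050 and AT3G21080 from 1.54, 1.47 and 1.33 to 2.05, 1.92 and 1.77.

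Oxidoreductases comprised 4 genes. AT3G62950, a CC-type glutaredoxin, had 8.3, 7.22 and 6.88 in WT and 8.61, 9.09 and 9.36 in the mutant, so that WT array 1 came within 0.31 of the lowest mutant array. ARPN, which encodes plantacyanin, a blue copper protein, had 6.23, 6.16 and 6.36 in WT and 8.05, 7.85 and 7.35 in the mutant, with the groups 0.99 apart. The cytochrome P450 gene AT3G44970 had 7.63, 7.33 and 7.61 in WT and 8.74, 8.64 and 8.56 in the mutant, and AT4G39830, a cupredoxin related to ascorbate oxidase, had 3.97, 3.91 and 4.08 in WT and 5.52, 4.91 and 4.7 in the mutant. The mutant arrays lay within 0.18 for the P450 and were spread over 0.82 for AT4G39830.

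Of the transferases, AT5G38780, a methyltransferase of the SABATH family, had 4.05, 4.59 and 4.75 in WT and 5.89, 6.18 and 5.67 in the mutant (1.45 ± 0.197). AT2G41640, a glycosyltransferase of family 61, and AT3G55710, a UDP-glycosyltransferase, both differed by 1.39. AT2G41640 had 6.57, 5.95 and 5.89 in WT and 7.58, 8.0 and 7.01 in the mutant, and AT3G55710 had 5.71, 5.71 and 5.61 in WT and 6.79, 6.92 and 7.48 in the mutant. Among mutant arrays, array 3 was the lowest in the former and the highest in the latter. The O-fucosyltransferase gene AT2G44500 had 5.79, 5.67 and 5.18 in WT and 6.95, 7.12 and 5.8 in the mutant. Its mutant array 3 lay only 0.01 above WT array 1, the narrowest gap of the 111 genes.

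ICL, isocitrate lyase of the glyoxylate cycle, which turns stored lipid into sugar in germinating seedlings, was 3.13-fold higher, with 6.19, 5.27 and 6.55 in the WT arrays and 7.66, 7.79 and 7.5 in the mutant arrays. The mutant arrays lay within 0.29, and WT array 2 was the lowest of the WT arrays. PAP85, a vicilin-like seed storage protein, was dim in WT and had 4.1, 3.96 and 4.03 in the WT arrays and 5.92, 5.84 and 5.91 in the mutant arrays. Its difference was 1.86 ± 0.0825 with the groups 1.74 apart, the widest gap of the 111. AT1G79470, an IMP dehydrogenase of guanine nucleotide synthesis, had 6.43, 6.43 and 6.68 in WT and 7.57, 7.5 and 7.55 in the mutant. HLL, a mitochondrial ribosomal protein of the L14 type, had 5.87, 5.47 and 5.75 in WT and 6.97, 6.94 and 6.83 in the mutant, and the gibberellin-regulated GASA gene AT2G14900 had 5.94, 5.77 and 6.18 in WT and 7.1, 7.29 and 6.98 in the mutant. Each was higher by 2.04- to 2.32-fold with the mutant arrays within 0.31 of each other.

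In cytoskeleton and trafficking, AT1G68110, an ENTH/ANTH adaptor of clathrin-coated vesicles, had 4.5, 4.67 and 4.1 in WT and 6.0, 5.77 and 5.98 in the mutant. The flotillin gene AT5G64870 had 4.96, 4.62 and 4.97 in WT and 5.94, 6.41 and 5.83 in the mutant, and the actin gene ACT11 had 5.78, 5.24 and 5.64 in WT and 6.54, 6.86 and 6.6 in the mutant. Mutant array 2 was the highest in the latter pair. Of the stress proteins, AT1G05340, a cysteine-rich transmembrane protein, had 7.92, 7.66 and 8.08 in WT and 9.43, 9.45 and 8.69 in the mutant. AT5G22580, an A/B barrel protein, and DI21, known as drought-induced, had 7.23, 8.05 and 7.45 in WT and 8.67, 8.7 and 9.08 in the mutant, and 7.31, 7.15 and 7.44 in WT and 8.43, 8.46 and 8.56 in the mutant. DI21 was the tightest of these. Among other described genes, AT2G47440 (tetratricopeptide repeats) had 7.79, 7.66 and 7.43 in WT and 8.82, 8.97 and 9.23 in the mutant, and AT3G19850, of the NPH3 family known from phototropism, had 6.65, 6.75 and 6.12 in WT and 7.55, 7.92 and 7.8 in the mutant. The WD40 gene AT1G24530 had 6.88, 6.54 and 6.99 in WT and 8.1, 8.41 and 7.54 in the mutant. AT5G42280, with C1 domains, differed by 1.04.

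The 31 little described genes had differences from 1.01 to 1.90 and WT means from 3.88 to 11.75. AT1G19380 had 7.74, 6.88 and 6.59 in the WT arrays and 9.12, 9.51 and 8.28 in the mutant arrays, and AT5G12050 had 8.26, 8.01 and 7.19 in the WT arrays and 9.34, 9.67 and 9.91 in the mutant arrays. Both were 3.53-fold or more higher, with mutant array 3 the lowest in the former and the highest in the latter. AT2G25735 had 7.58, 7.53 and 7.62 in WT and 9.12, 9.06 and 7.98 in the mutant, so its WT arrays agreed within 0.09 while mutant array 3 lay far below arrays 1 and 2. AT1G65490 had 7.71, 6.9 and 6.31 in WT and 7.92, 8.46 and 8.22 in the mutant, with WT array 1 within 0.21 of the lowest mutant array. Differences from 1.20 to 1.68 were found in AT1G50040, AT1G64360, AT4G37295, AT5G58570, AT1G33055, AT1G76960, AT3G01430 and AT5G01015, whose WT means ran from 4.52 to 8.55. Differences from 1.01 to 1.19 were found in AT5G25240, AT5G02580, AT5G53880, AT2G04790, AT4G23870, AT1G22890, AT1G10990, AT1G74440, AT1G54740, AT1G67910, AT5G20790, AT2G35590, AT1G55265, AT1G49000 and AT5G64190, with WT means from 3.94 to 8.56.

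**Figure D3:**
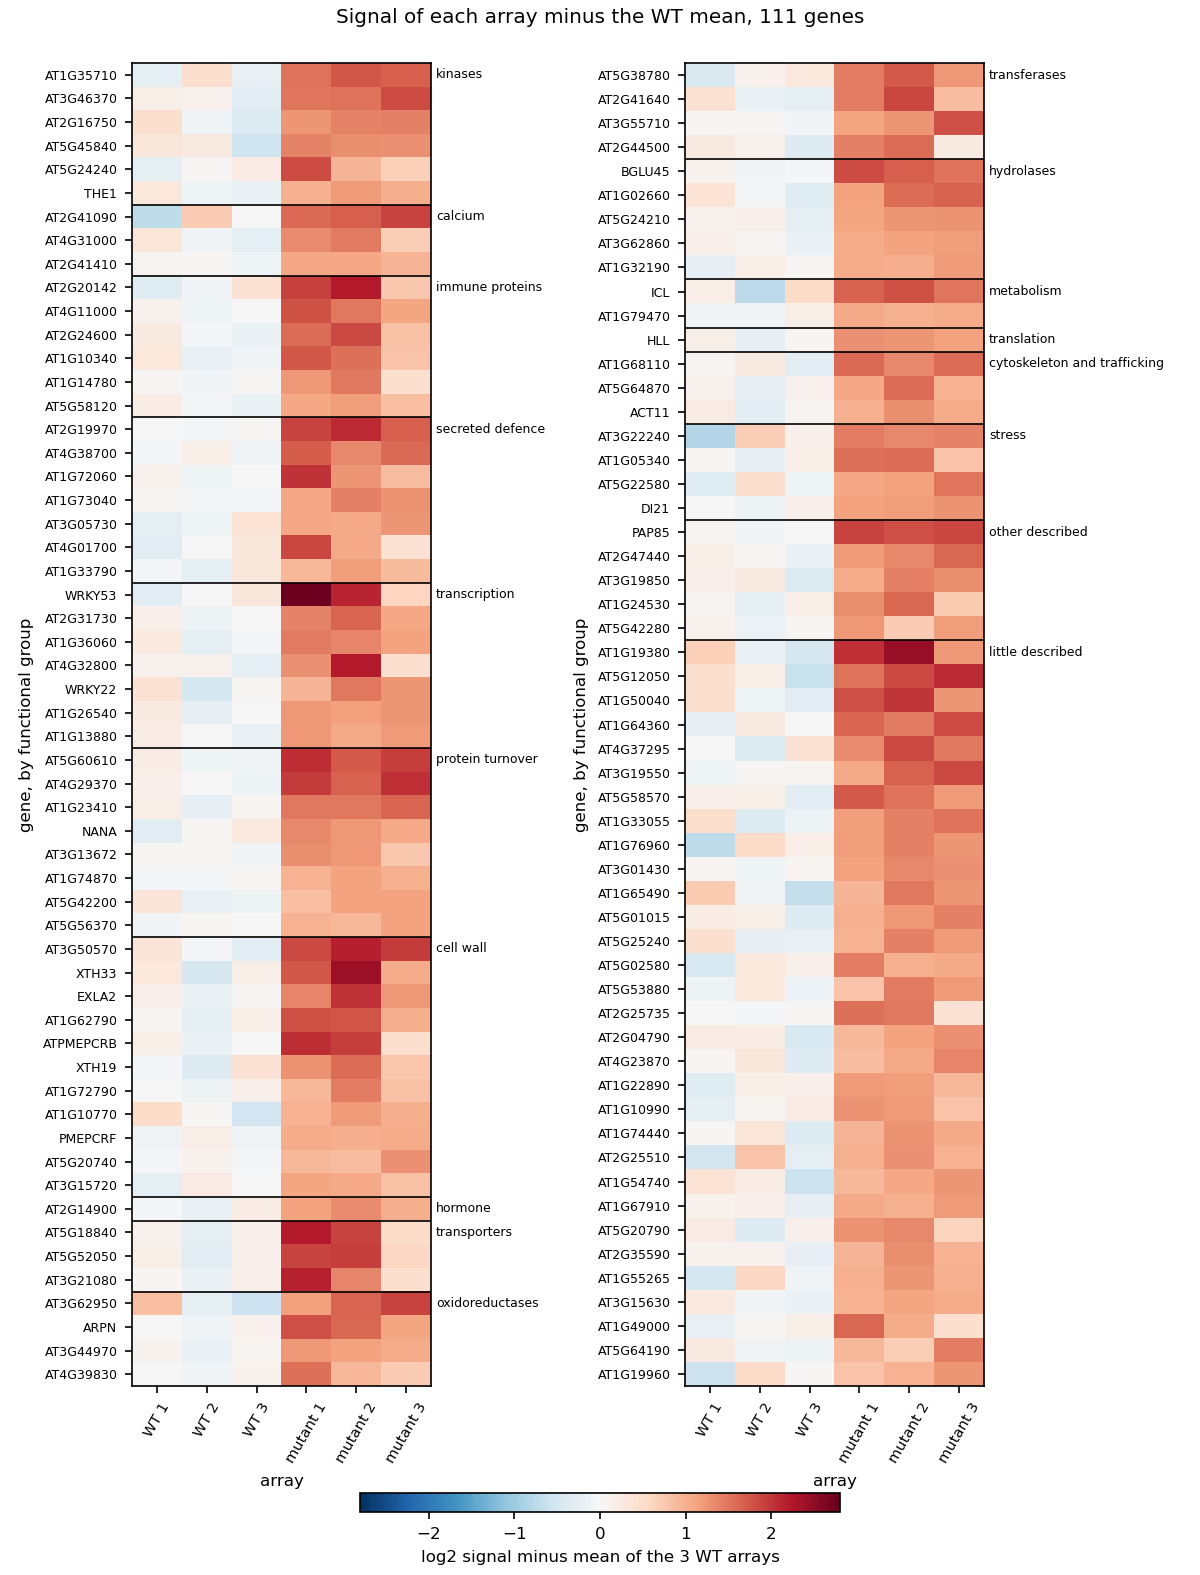
Log2 signal of each array minus the mean of the 3 WT arrays for the 111 genes, in rows by functional group and, within a group, by mean difference; columns are the 6 arrays. Red is above and blue below the WT mean, and mutant array 3 is paler than the other mutant arrays in the transporter and immune groups.

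The change per array differed among the mutant arrays. Relative to the WT mean, the median over the 111 genes was 1.26 in mutant array 1, 1.36 in array 2 and 1.13 in array 3, with ranges of 0.79 to 2.75, 0.69 to 2.44 and 0.25 to 2.09. All 3 mutant arrays were at least 2-fold above the WT mean in 55 genes, and in 10 genes at least 1 mutant array was under 1.5-fold. Mutant array 3 was the lowest mutant array in 52 genes (46.8%), array 1 in 38 and array 2 in 19. Over all 13367 nuclear probe sets, mutant array 3 was the lowest in 29.9%, array 1 in 31.4% and array 2 in 35.5%. Every mutant array lay above every WT array in 1944 of the nuclear probe sets, and array 3 was the lowest in 29.4% of these. Of the 12 probe sets at least 4-fold higher, array 3 was the lowest in 5 (41.7%). In WT, array 1 was the highest in 51 members (45.9%, beside 33.4% of nuclear probe sets). It was also the highest WT array in 42.3% of those 1944 probe sets and in 7 of those 12, so the members were close to other separated probe sets here. These shares are descriptions, since the genes share the same 6 arrays.

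In 12 genes mutant array 3 was at least 1 below the mean of mutant arrays 1 and 2 on the log2 scale, a 2-fold margin chosen after the values were seen. This was 10.8% of the 111, beside 1.18% of nuclear probe sets, but the members also varied more between arrays of 1 genotype, with a median SD of 0.208 in the mutant and 0.251 in WT beside 0.11 and 0.126 over nuclear probe sets. The 12 were WRKY53, AT5G18840, ATPMEPCRB, AT5G52050, AT3G21080, AT2G20142, AT4G32800, AT2G44500, AT2G25735, AT4G01700, AT1G19380 and XTH33. They belong to the transcription, transporter, cell wall, immune, transferase and secreted defence groups or are little described, and they include 3 of the 4 genes that limma did not call. The lowest value was -1.84 for WRKY53, and the highest of the 111 was 0.63. The root marker PYK10, the brightest of the 3 measured root markers, had 12.26 and 12.36 in mutant arrays 1 and 2 and 11.82 in array 3, beside 12.17 to 12.43 in WT. EXPA18 had 5.34, 5.11 and 4.71 in the mutant arrays and EXPA7 3.48, 3.67 and 3.48. The part of root tissue in the values of array 3 was not tested. The labels do not say whether array 3 differed in harvest, extraction or hybridisation.

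**Figure D4:**
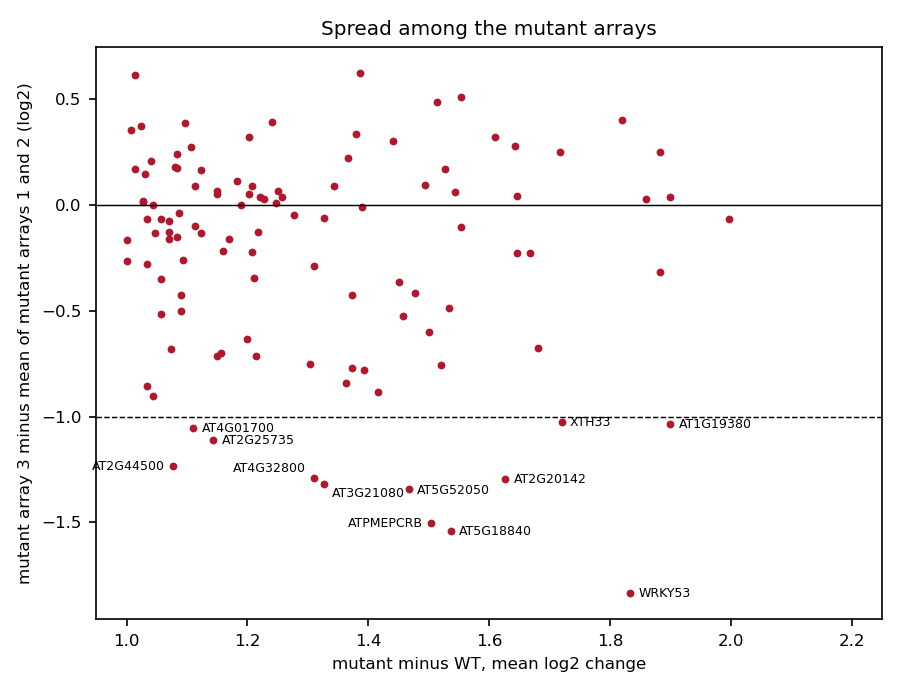
Mean log2 difference between mutant and WT (horizontal) against mutant array 3 minus the mean of mutant arrays 1 and 2 (vertical), 1 point for each of the 111 genes. The dashed line marks -1, and the 12 named genes lie below it, WRKY53 lowest at -1.84.

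Neighbouring genes were examined because position was not used beyond the chromosome. Among the protein-coding genes of RefSeq in chromosome order, 1 pair of members was adjacent, AT5G20740 and AT5G20790, with differences of 1.02 and 1.07 and with 4 pseudogenes between them. AT5G20790 had 6.9, 6.3 and 6.81 in the WT arrays and 7.93, 8.01 and 7.29 in the mutant arrays, and AT5G20740 had 7.31, 7.45 and 7.31 in the WT arrays and 8.29, 8.22 and 8.63 in the mutant arrays. Mutant array 3 was the lowest mutant array in the former and the highest in the latter. AT5G24210 and AT5G24240 had 3 protein-coding genes between them, and WRKY53 and AT4G23870 had 4. Next to the members in this order, 102 measured genes that were not members had a median log2 difference of 0.05, and limma called 5 of them higher and 8 lower. The background was 6.52% higher and 6.61% lower over all probe sets.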

How the data were processed

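Transcript levels of 3 WT and 3 yaf9a yaf9b arrays were used as deposited. The authors deposited values on the log2 scale with 2 decimals, and RMA and affy are named in the submitters' processing notes; for versions, genome build and scan dates, nothing is given in the sources used here. Since RMA gives all arrays a like distribution, it would hide a change common to most transcripts. Batches could not be checked. For arrays, their number limits the precision.

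After 64 control probe sets were left out, 22746 remained; 13513 listed 1 gene in GEO's platform annotation, 503 several and 8730 none. By gene ID, 13436 matched the RefSeq table of assembly TAIR10.1, and 13367 lay on chromosomes 1 to 5. Limma 3.58.1 in R 4.3.3 (lmFit, eBayes, two-sided, Benjamini-Hochberg over all 22746, threshold 0.05) gave standard errors and calls, and the script was tested on simulated data. Families were matched by RefSeq symbol or synonym, with the brightest probe set per gene. The shares printed beside families are over all probe sets. With 1 probe set per nuclear gene, limma called 766 of 13217 higher and 807 lower. Genes without a matching name were missed. The receptor-like kinase, AP2/ERF, TIR and NBS-LRR, ABC transporter and lipid transfer families had 0 genes matched and could not be compared. The bHLH family lacked AT2G31730, and the jacalin family lacked AT1G73040 and AT1G33790. Functions of loci without a name in RefSeq are background knowledge, placed in groups by hand after the values were seen.

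The members and lists were chosen with earlier results of these data known. Every member is named. Signals in every array are given for up to 4 members of each functional group by size of difference, the brightest and dimmest 3 in WT, the largest and smallest differences, the narrowest gaps and adjacent members, and for some further genes picked with their values in view. The alternatives tried were cyclic loess, median centring, leaving out each array, omitting probe sets of the _s_at and _x_at kinds, a mean per gene, a trended robust variance model, array weights, a filter at the 40th percentile and the replicate number as a block. Promoter motifs had been planned and were not analysed here.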

Additional observations from a re-analysis of the deposited data

How the results depend on the processing

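The rule found 111 genes as reported, 123 after cyclic loess (109 of the 111 among them), 124 after median centring (110), 111 without suffixed probe sets and 112 with a mean per gene. Leaving out 1 array gave 100 to 153 genes, which held 90 to 101 of the 111; the highest count came without mutant array 3, where 97 of the 111 met the rule. In 64 of the 111, the difference was at least 1 whichever array was left out. The median WT level of 5.96 ran from 5.83 to 5.98 without 1 WT array.

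Of the 111 members, limma called 107 as reported, 79 to 107 with 1 array fewer, 94 with a trended robust variance model, 111 with array weights and 92 of the 94 that the dim filter kept. With the replicate number as a block it called 87. Over the 367 genes of the 42 families, limma called 43 higher and 35 lower; these were 16 to 48 higher and 13 to 36 lower with 1 array fewer, lowest without mutant array 2 (16 and 13), then without WT array 2 (23 and 20), and 28 higher without mutant array 1. The block gave 24 higher and 18 lower, and with it EXLB1, BGLU46, GH9C2 and ATPMEPCRD had adjusted p values of 0.0523, 0.0545, 0.0806 and 0.0813. The members WRKY53, WRKY22, XTH19, XTH33 and ATPMEPCRB had 0.0959, 0.0613, 0.0744, 0.0583 and 0.0604. Among genes matched to a family by name, the block left 0 WRKY, 2 xyloglucan endotransglucosylase and 1 pectin enzyme call. The pectin-related members AT5G20740, AT3G15720 and AT1G10770, not matched by name, had limma adjusted p values of 0.0264, 0.0294 and 0.0535 with the block. After subtraction of each genotype's mean, WT and mutant arrays sharing a number had correlations of -0.21, 0.01 and -0.32. These values give no sign of pairing by replicate number. Arrays with different numbers were not compared, so pairing or batches in another order were not tested. Fits with 1 array fewer or the block have fewer residual degrees of freedom; no other cause was tested. Promoter motifs were planned and not run.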
